A study of Mus musculus with 10 samples.

Results

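The genes described here make, break down and sense prostaglandins and leukotrienes. They were chosen by name, as the probe sets whose platform gene symbol is exactly Ptgs1, Ptgs2, Ptges, Ptges2, Hpgd, Ptger2, Ptger4, Ptgis, Alox5 or Alox5ap, and 9 of these 10 genes were found among the 19938 genes measured. Each of the 9 had 1 probe set. Ptgs1 had no probe set of that symbol and is not analysed here. Each mouse thyroid tumour gave RNA for a single Affymetrix whole-transcript array. Papillary thyroid carcinomas (PTC, 5 tumours) carried TPOCreER and BrafV600E, that is, a mutant Braf allele switched on by a Cre recombinase that the thyroid peroxidase promoter drives and tamoxifen activates. The 5 anaplastic thyroid carcinomas (ATC) carried the same 2 alleles and were also p53 -/-, so histology and p53 genotype changed together. Both groups were of a mixed C57BL/6;129SvJae background; neither the age of the mice nor the time after Cre induction is stated, and the p53 genotype was not checked on the arrays. The labels call the tumours biological replicates without saying that each came from its own mouse, so p-values measure only the spread between these samples. Values are log2 intensities, differences are ATC minus PTC, and errors are SDs with n = 5 unless named otherwise.

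Arachidonic acid, cut from membranes by phospholipases A2, is the shared starting point of both families. The prostaglandin H2 synthases Ptgs1 and Ptgs2, the targets of aspirin-like drugs, turn it into prostaglandin H2, and terminal synthases such as Ptges turn that into the active prostanoids. Prostaglandin E2 acts through G protein-coupled receptors, among them Ptger2 and Ptger4, and is inactivated by the dehydrogenase Hpgd. In leukocytes the lipoxygenase Alox5, with its membrane partner Alox5ap, starts leukotriene synthesis from the same fatty acid. Ptgs2 is an inducible gene of inflamed tissue and of many carcinomas, and Alox5 and Alox5ap are known mainly from myeloid cells.

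The start-site sequences of 3 of these genes are shown because Ptgs2 fell, Alox5 rose and Ptges, the enzyme that works next to Ptgs2, varied most widely among the ATC tumours relative to PTC. Of the 9 measured genes, 7 had an entry in the RefSeq promoter table of build GRCm38.p6; Ptgis and Alox5ap had none. Each sequence runs from 250 bases before to 50 bases after the annotated start, 5′ to 3′ on the gene's strand, and capitals mark matches to 5 letter strings searched on both strands. These were TGACGT (the core of the cAMP response element), TTGCGCAA (a C/EBP palindrome), CACGTG (an E-box), GGGCGG (a GC box) and TATAAA.
Ptgs2: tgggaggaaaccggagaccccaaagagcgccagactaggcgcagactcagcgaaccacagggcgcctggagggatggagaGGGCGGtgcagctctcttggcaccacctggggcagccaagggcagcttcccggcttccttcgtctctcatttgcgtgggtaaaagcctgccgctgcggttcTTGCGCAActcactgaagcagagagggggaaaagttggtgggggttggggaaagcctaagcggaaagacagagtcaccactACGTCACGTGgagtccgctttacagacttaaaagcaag
Ptges: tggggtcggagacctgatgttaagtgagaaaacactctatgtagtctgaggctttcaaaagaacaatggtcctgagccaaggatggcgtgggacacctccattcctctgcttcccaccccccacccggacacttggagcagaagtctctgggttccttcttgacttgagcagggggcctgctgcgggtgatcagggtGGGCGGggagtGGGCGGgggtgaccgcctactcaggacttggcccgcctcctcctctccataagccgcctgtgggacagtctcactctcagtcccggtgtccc
Alox5: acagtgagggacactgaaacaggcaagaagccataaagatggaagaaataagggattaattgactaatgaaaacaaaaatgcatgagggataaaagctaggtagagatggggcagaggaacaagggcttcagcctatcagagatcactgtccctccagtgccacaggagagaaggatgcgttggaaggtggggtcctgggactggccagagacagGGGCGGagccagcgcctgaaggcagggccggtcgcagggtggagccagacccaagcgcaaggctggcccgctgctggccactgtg
The Ptgs2 window lies at chr1:150099781-150100080 on the plus strand, the Ptges window at chr2:30903248-30903547 on the minus strand and the Alox5 window at chr6:116461129-116461428 on the minus strand. In Ptgs2 the C/EBP palindrome begins 69 bases before the annotated start and the GC box 170 bases before it. The cAMP response element core and the E-box of Ptgs2 overlap and begin at positions 13 and 17 after the start. Among 32851 windows of 300 bases, TTGCGCAA occurs in 0.183%, TGACGT in 7.51%, CACGTG in 7.15%, GGGCGG in 35.7% and TATAAA in 13.6%. Ptges holds 2 GC boxes, 53 and 42 bases before its start, and Alox5 holds 1, 35 bases before its start. Neither window held a match to the other strings. These are matches of letters and were not tested for binding.

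In ATC the lipoxygenase Alox5 and its partner Alox5ap rose, the prostaglandin H2 synthase Ptgs2 fell, and 6 of the 9 genes did not pass the test. With limma and Benjamini-Hochberg adjustment over all 19938 genes, 3 of the 9 passed at an adjusted p under 0.05, against 21.2% of all genes. For both directions the share was 11.5% of all genes for rises and 9.72% for falls, and nothing particular to these 9 genes is read from a count of 3. The median difference of the 9 was −0.0061, and that of all genes was −0.0177. The groups did not overlap for 1 of the 9 genes, against 16.9% of all genes. All 9 genes had the larger SD in ATC, as did 68.6% of all genes. Without ATC replicate 2, the 3 calls remained and Ptges, Ptgis and Hpgd joined them, so that 6 genes passed. In that fit 4084 of all 19938 genes passed, against 4234 with all arrays. Of the ATC tumours, replicate 2 had the highest list means of thyrocyte (7.94) and epithelial (9.29) markers. Its thyrocyte mean lay inside the PTC range of 7.74 to 8.71.

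**Figure D1:**
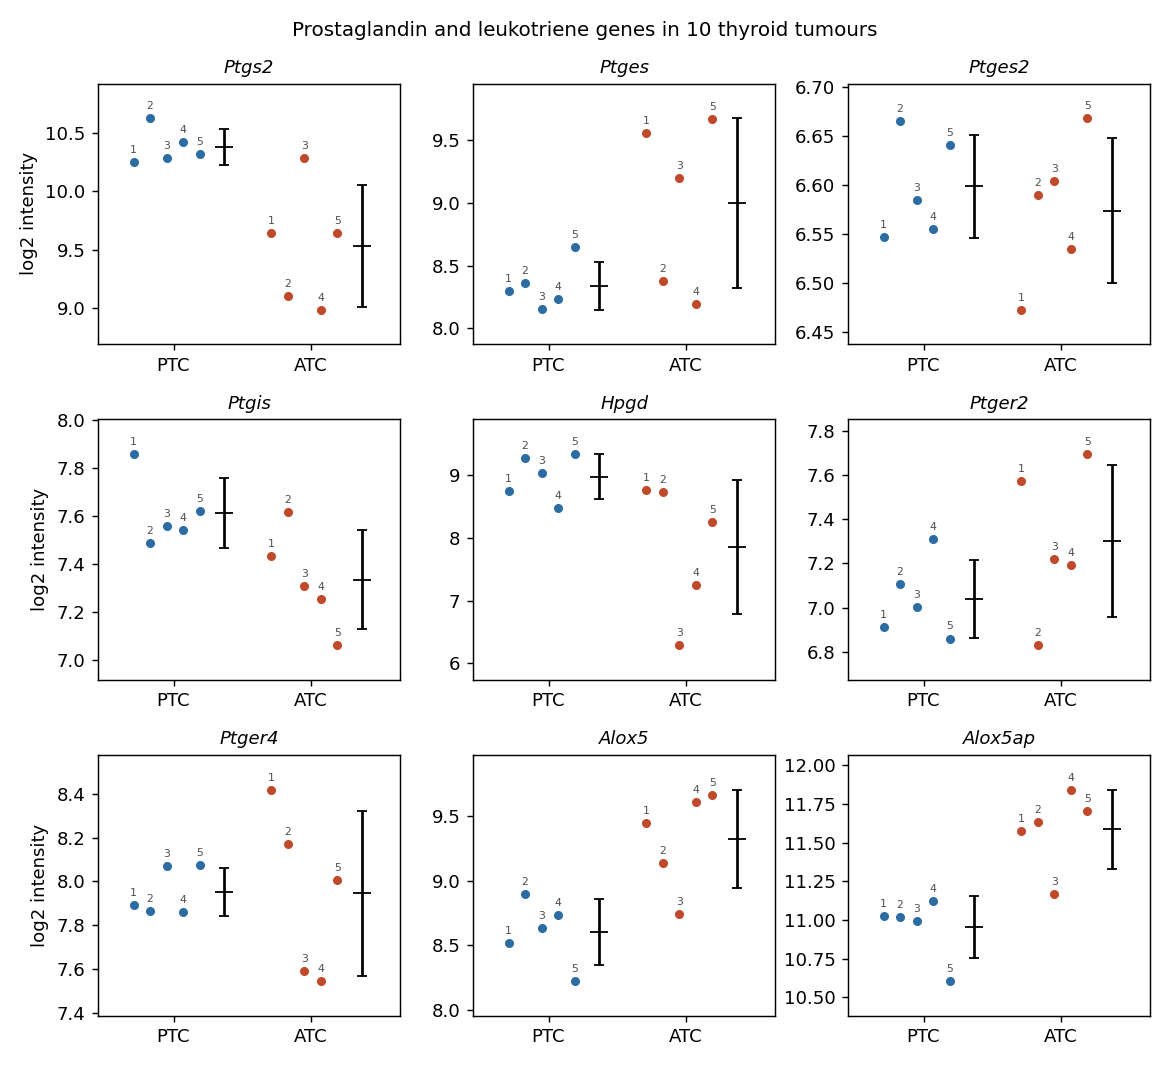
Log2 intensity (vertical axis, scaled per gene) of the 9 genes in 5 PTC (blue) and 5 ATC (red) tumours; numbers are replicate numbers, and black marks are the mean with 1 SD. Alox5ap is the gene whose groups do not overlap, and the ATC tumours spread more widely than the PTC tumours in every panel.

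Ptgs2, the inducible enzyme that commits arachidonic acid to prostaglandins, was lower in ATC. Its probe set (10350516, chromosome 1) read 10.25, 10.63, 10.29, 10.42 and 10.32 in PTC replicates 1 to 5 and 9.64, 9.10, 10.29, 8.99 and 9.64 in ATC replicates 1 to 5. The papillary tumours lay close together, 4 ATC tumours lay below all of them, and ATC replicate 3 lay inside their range. The mean went from 10.38 ± 0.15 to 9.53 ± 0.52, a fall by 0.85 (SE 0.21, 95% interval −1.31 to −0.39, 1.8-fold, limma adjusted p = 0.0146). Leaving out any single array kept the call (differences −1.04 to −0.71). Without both PTC replicate 5 and ATC replicate 2, a pair chosen after seeing the data, it ended (difference −0.76, adjusted p = 0.0517).

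The 3 synthases Ptges, Ptges2 and Ptgis, which act on prostaglandin H2, did not pass, and their differences had both signs. Ptges, the inducible synthase of prostaglandin E2 (probe set 10481518, chromosome 2), read 8.30, 8.36, 8.15, 8.23 and 8.65 in PTC and 9.56, 8.37, 9.20, 8.19 and 9.67 in ATC. ATC replicates 1, 3 and 5 lay above every papillary tumour, whereas ATC replicates 2 and 4 lay inside the PTC range. The difference was 0.66 (SE 0.27, 95% interval 0.069 to 1.25, adjusted p = 0.111), with an SD of 0.19 in PTC and 0.68 in ATC. It passed without ATC replicate 2 (0.82, adjusted p = 0.0494) or without ATC replicate 4 (0.86, adjusted p = 0.0252).

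Ptges2, a synthase attributed to the same step that is made in many tissues (probe set 10471411, chromosome 2), stayed between 6.55 and 6.67 in PTC and between 6.47 and 6.67 in ATC. Its difference was −0.025 (95% interval −0.16 to 0.11, adjusted p = 0.831), and the sign turned with another scaling of the arrays. Ptgis, the prostacyclin synthase of vessel walls and stroma (probe set 10489878, chromosome 2), read 7.86, 7.49, 7.56, 7.54 and 7.62 in PTC and 7.43, 7.61, 7.31, 7.25 and 7.06 in ATC. Here 4 ATC tumours lay below every papillary tumour and ATC replicate 2 lay among them. The difference was −0.28 (SE 0.11, 95% interval −0.52 to −0.042, adjusted p = 0.0931), and it passed without ATC replicate 2 (−0.35, adjusted p = 0.0337). With array weights it was −0.18 (adjusted p = 0.227). The endothelial markers, 1 of 8 lower and 0 higher, had list means of 8.36 to 8.77 in PTC and 8.03 to 8.49 in ATC. The fibroblast markers, 4 of 10 lower and 0 higher, had list means of 9.80 to 9.99 and 9.10 to 10.03. The share called was 12.5% of endothelial and 40% of fibroblast markers, against 21.2% of all genes. The part of these cells in the Ptgis values was not tested. Whether Ptges moved apart from Ptges2 was asked with the difference of the 2 log2 values in each tumour, which averaged 1.74 ± 0.16 in PTC and 2.42 ± 0.67 in ATC. That change of 0.69 did not pass an exact two-sided permutation test over tumours (p = 0.0873, adjusted p = 0.262 over 3 such pairs; the smallest p that 5 against 5 allows is 0.00794).

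Hpgd, the dehydrogenase that inactivates prostaglandin E2, was the most variable of the 9 genes, with an SD of 0.96 over the 10 arrays. Its probe set (10571840, chromosome 8) read 8.74, 9.27, 9.04, 8.48 and 9.34 in PTC and 8.77, 8.73, 6.29, 7.26 and 8.25 in ATC. ATC replicates 1 and 2 lay within the papillary range, the other 3 lay below it, and replicate 3 was lowest. The means were 8.98 ± 0.36 and 7.86 ± 1.07, a difference of −1.12 (SE 0.43, 95% interval −2.05 to −0.18, 2.17-fold, adjusted p = 0.0902). Without ATC replicate 2 it passed narrowly (−1.33, adjusted p = 0.0499), and without ATC replicate 3 the difference was −0.72 (adjusted p = 0.127). ATC replicate 3 thus had the lowest Hpgd and the highest Ptgs2 of the ATC tumours, and ATC replicate 4 had low values of both.

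Hpgd is known from epithelia, and epithelial markers fell in the same comparison. Of 10 such markers 8 fell, 0 rose and 2 did not pass, with list means of 10.06 to 10.24 in PTC and 7.74 to 9.29 in ATC. Krt7 (−3.14, adjusted p = 0.0035), Krt19 (−2.92, adjusted p = 0.00085) and Epcam (−2.73, adjusted p = 0.00838) changed most in that list. Within ATC, replicate 1 had the lowest epithelial list mean (7.74) and the highest Hpgd (8.77). Replicate 2, with the highest list mean (9.29), had an Hpgd of 8.73, close to that of replicate 1. Replicate 3, with a list mean of 7.88, had the lowest Hpgd (6.29). With the values in view, the list of 8 dendritic cell markers was also set beside Hpgd. ATC replicates 3 and 4 had the lowest ATC list means (7.18 and 7.13) and Hpgd values, and PTC replicate 4 was lowest of its group in both. The highest list means were in PTC replicate 3 (8.26) and ATC replicate 2 (7.94), but the highest Hpgd in PTC replicate 5 and ATC replicate 1. The part of epithelial or dendritic cell content in the Hpgd and Ptgs2 values was not tested. In tumour pieces, fewer cells of a type and less RNA per cell cannot be told apart.

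**Figure D2:**
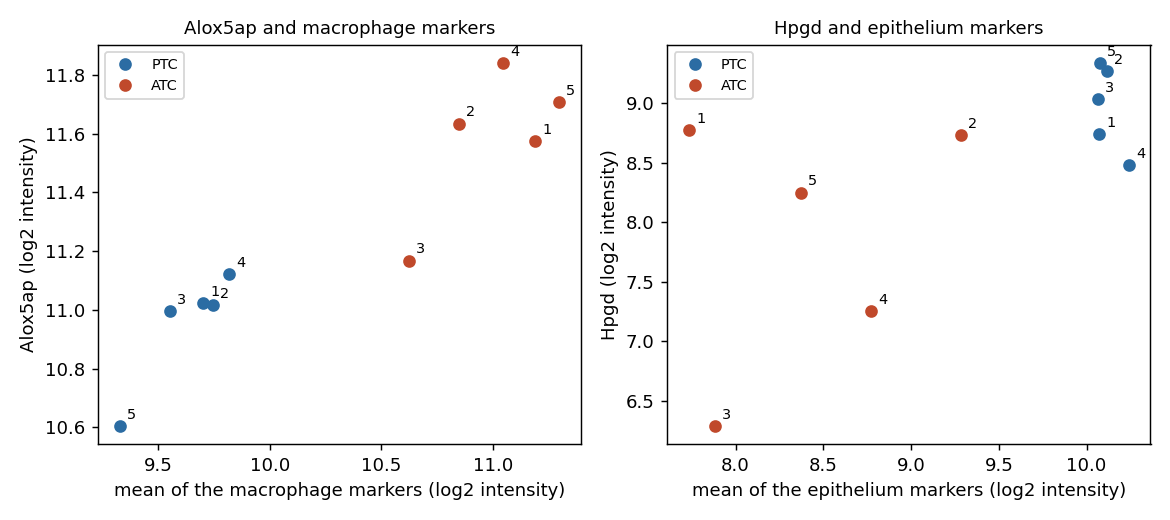
Alox5ap against the mean of 14 macrophage markers (left) and Hpgd against the mean of 10 epithelial markers (right), all in log2 intensity, for 5 PTC (blue) and 5 ATC (red) tumours with their replicate numbers; both pairings were picked with the values in view. The groups separate on both marker axes; Hpgd spreads from 6.29 to 8.77 among ATC tumours.

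The 2 prostaglandin E2 receptors, both of which raise cAMP when activated, did not pass. Ptger2 (probe set 10414271, chromosome 14) read 6.92, 7.11, 7.00, 7.31 and 6.86 in PTC and 7.57, 6.83, 7.22, 7.19 and 7.69 in ATC, a difference of 0.26 (95% interval −0.075 to 0.60, adjusted p = 0.272). The Ptger2 difference was 0.17 without ATC replicate 5 and 0.14 with array weights. ATC replicates 1 and 5, the tumours with the highest Ptges, also had the highest Ptger2 of all 10. Ptger4 (probe set 10427461, chromosome 15) read 7.89, 7.87, 8.07, 7.86 and 8.08 in PTC and 8.42, 8.17, 7.59, 7.54 and 8.01 in ATC. Its ATC values fell on both sides of the narrow papillary range, 2 above and 2 below it, with an SD of 0.38 against 0.11. Its mean difference was −0.0061 (95% interval −0.35 to 0.34, adjusted p = 0.986), and the sign turned under other settings. The within-tumour difference between Ptger4 and Ptger2 was 0.91 ± 0.26 in PTC and 0.64 ± 0.45 in ATC (exact two-sided permutation p = 0.262, adjusted p = 0.393).

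The leukotriene pair rose together. Alox5, the lipoxygenase that makes leukotriene A4 (probe set 10547153, chromosome 6), read 8.52, 8.90, 8.63, 8.73 and 8.22 in PTC and 9.45, 9.14, 8.75, 9.61 and 9.67 in ATC. All ATC tumours but replicate 3 lay above every papillary tumour. The mean rose from 8.60 ± 0.25 to 9.32 ± 0.38, by 0.72 (SE 0.18, 95% interval 0.33 to 1.12, 1.65-fold, limma adjusted p = 0.0152).

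Alox5ap, which presents arachidonic acid to Alox5 at the nuclear membrane (probe set 10527638, chromosome 5), read 11.02, 11.02, 10.99, 11.12 and 10.60 in PTC and 11.57, 11.63, 11.17, 11.84 and 11.71 in ATC. The groups did not overlap, although ATC replicate 3 lay only just above PTC replicate 4. The mean rose from 10.95 ± 0.20 to 11.58 ± 0.25, by 0.63 (SE 0.13, 95% interval 0.34 to 0.92, 1.55-fold, adjusted p = 0.00599). Both calls held with each array left out (differences 0.63 to 0.87 for Alox5 and 0.55 to 0.74 for Alox5ap). Their difference within a tumour was 2.35 ± 0.14 in PTC and 2.26 ± 0.19 in ATC, a change of −0.09 that did not pass (exact two-sided permutation p = 0.437, adjusted p = 0.437), and PTC replicate 5 and ATC replicate 3 were the lowest of their groups for both genes.

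Macrophage markers rose in the same comparison, and neutrophil and dendritic cell markers as lists did not. Of 14 macrophage markers 12 rose, 0 fell and 2 did not pass, and the list mean was 9.33 to 9.82 in PTC and 10.62 to 11.30 in ATC. The scavenger receptors Cd163 (3.47, adjusted p = 0.000141) and Msr1 (1.79, adjusted p = 0.000342) and the integrin Itgam (1.74, adjusted p = 0.00032) changed most. PTC replicate 5 and ATC replicate 3, lowest of their groups in Alox5 and Alox5ap, were also lowest in the macrophage list mean (9.33 and 10.62). At the upper end of ATC, replicate 5 had the highest list mean (11.30) and Alox5 (9.67), but replicate 4 had the highest Alox5ap (11.84). Of 12 neutrophil markers 0 rose, 1 fell and 11 did not pass, with list means of 6.52 to 7.70 in PTC and 6.44 to 7.06 in ATC. Of 9 mast cell markers 3 rose and 0 fell (list means 6.21 to 6.33 and 6.22 to 7.21), and of 8 dendritic cell markers 1 rose and 3 fell (8.02 to 8.26 and 7.13 to 7.94). The share called was 85.7% of macrophage, 8.33% of neutrophil, 33.3% of mast cell and 50% of dendritic cell markers, against 21.2% of all genes. The part of these cells in the Alox5 and Alox5ap values was not tested.

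**Figure D3:**
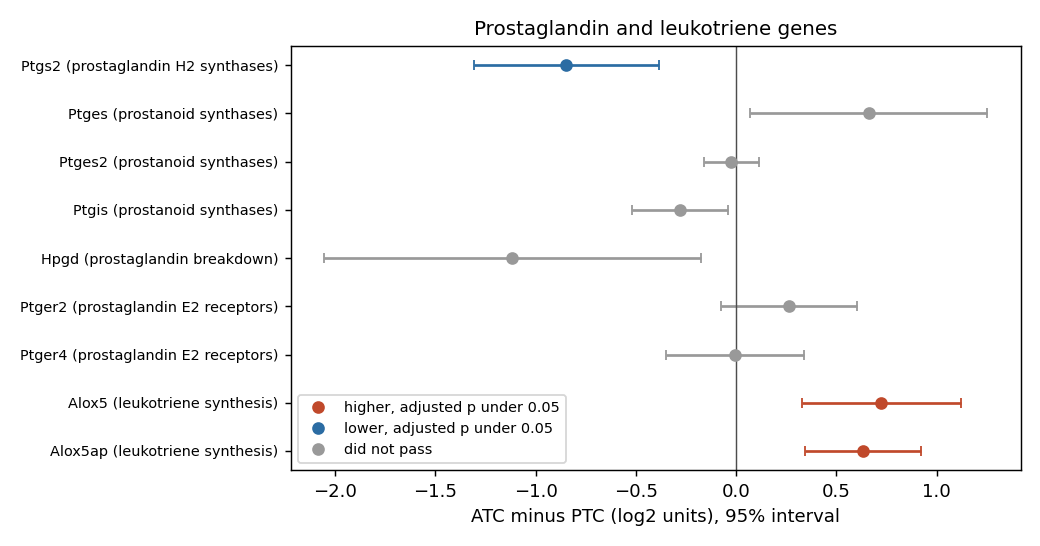
Difference ATC minus PTC in log2 units (horizontal axis) with its 95% interval for the 9 genes, ordered by role; red and blue mark genes higher and lower at an adjusted p under 0.05, and grey those that did not pass. Alox5 and Alox5ap lie at 0.72 and 0.63, Ptgs2 at −0.85, and the widest interval belongs to Hpgd.

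The rest of the eicosanoid pathway was read from a list of 51 other genes, of which 47 were measured. Of these 8 rose, 5 fell and 34 did not pass, which is 27.7% called against 21.2% of all genes, with a median difference of −0.0411. The groups did not overlap for 12 of the 47, against 16.9% of all genes. The counts by role below rest on 3 to 14 genes each, and nothing about a role is read from them. The rises ranged from 0.39 (Tbxas1) to 2.58 (Alox15), and the falls from 0.43 (Ptger3) to 0.70 (Cbr1).

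Alox15, a lipoxygenase of resident-type macrophages and epithelia that oxygenates arachidonic acid at another carbon than Alox5, changed most. It read 7.47, 7.44, 7.07, 8.63 and 7.44 in PTC and 8.70, 10.97, 10.55, 10.57 and 10.13 in ATC. The groups did not overlap, although PTC replicate 4 and ATC replicate 1 nearly met. The mean rose from 7.61 ± 0.60 to 10.19 ± 0.88, by 2.58 (SE 0.40, 5.97-fold, limma adjusted p = 0.00125). The other 5 lipoxygenases on the list did not pass (Alox12, Alox12b, Alox8, Aloxe3 and Alox12e).

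Among terminal prostanoid synthases 3 of 6 rose and 1 fell (66.7% called, against 21.2% of all genes). Hpgds, the prostaglandin D2 synthase of haematopoietic cells, read 8.11, 8.25, 8.31, 8.32 and 8.08 in PTC and 10.38, 9.91, 9.02, 9.60 and 9.73 in ATC. Every ATC tumour lay above every papillary tumour, and the mean rose by 1.51 (SE 0.20, 2.86-fold, adjusted p = 0.000473). Prxl2b, named for prostaglandin F2 alpha synthesis, rose by 0.49 (adjusted p = 0.0276); this call ended without PTC replicate 3, PTC replicate 5 or ATC replicate 1 (differences 0.41 to 0.47, adjusted p = 0.0636, 0.0625 and 0.066). Tbxas1, the thromboxane synthase, rose by 0.39 (adjusted p = 0.0341). Of the 10 fits that each leave out 1 array, Tbxas1 did not pass in 6, those lacking papillary replicates 1, 4 and 5 and anaplastic replicates 1, 2 and 5 (adjusted p from 0.059 to 0.0724). With the arrays quantile normalized once more, Tbxas1 did not pass either (0.34, adjusted p = 0.0693). Cbr1, a carbonyl reductase that acts on prostaglandin E2 among other substrates, fell by 0.70 (SE 0.11, adjusted p = 0.00129), with 9.25 to 9.55 in PTC and 8.38 to 9.02 in ATC.

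Among receptors 3 calls were made, too few to read a contrast between the prostanoid and the leukotriene receptors. The share called was 28.6% of the prostanoid and 33.3% of the leukotriene receptors, against 21.2% of all genes. Of 7 further prostanoid receptors 2 fell, 0 rose and 5 did not pass. Ptgdr, a receptor of prostaglandin D2, fell by 0.56 (SE 0.10, adjusted p = 0.00326; 7.21 to 7.78 in PTC and 6.79 to 7.02 in ATC), and Ptger3, a prostaglandin E2 receptor that lowers cAMP, fell by 0.43 (SE 0.07, adjusted p = 0.00221; 6.71 to 6.89 and 6.17 to 6.49). Of 3 leukotriene receptors, Cysltr1, which binds leukotriene D4, rose by 0.79 (SE 0.17, adjusted p = 0.00773). Cysltr1 read 9.13 to 9.93 in PTC and 9.93 to 10.68 in ATC, so that the highest papillary and the lowest ATC tumour were equal to 2 decimals. Ltb4r1 and Cysltr2 did not pass, and their differences were negative (−0.19 and −0.36).

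Of 7 other leukotriene synthesis genes 1 rose and 1 fell (28.6% called, against 21.2% of all genes). Ltc4s, which joins leukotriene A4 to glutathione, rose by 0.49 (SE 0.11, adjusted p = 0.0069; 6.74 to 6.91 in PTC and 7.07 to 7.62 in ATC). Ggt5, which trims leukotriene C4 further, fell by 0.68 (SE 0.14, adjusted p = 0.00535; 7.86 to 8.10 and 6.90 to 7.66). Mgst2, a second enzyme of the glutathione step, differed by 1.40 without passing (adjusted p = 0.0986), with ATC tumours from 7.87 to 10.79. It passed without ATC replicate 2 (1.79, adjusted p = 0.0256).

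Of 14 phospholipases A2, 1 rose and 1 fell (14.3% called, against 21.2% of all genes). Pla2g7, which hydrolyses platelet-activating factor rather than freeing arachidonic acid, rose by 1.32 (SE 0.21, adjusted p = 0.00138) from 10.63 ± 0.31 to 11.95 ± 0.45. The secreted enzyme Pla2g5 fell by 0.65 (SE 0.15, adjusted p = 0.0113) from 8.16 ± 0.10 to 7.50 ± 0.37. Pla2g4a, the cytosolic enzyme that supplies both pathways, was at 9.56 ± 0.29 and 9.72 ± 0.17 and did not pass (difference 0.16, adjusted p = 0.476). Of 4 genes of prostaglandin transport and breakdown, Ptgr1, a reductase that acts after Hpgd and on leukotriene B4, rose by 0.47 (SE 0.12, adjusted p = 0.0165). The calls of Prxl2b, Ptgr1 and Tbxas1 ended without both PTC replicate 5 and ATC replicate 2, a pair chosen after seeing the data. In that fit 10 pathway genes passed, and 3566 of all 19938 genes.

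**Figure D4:**
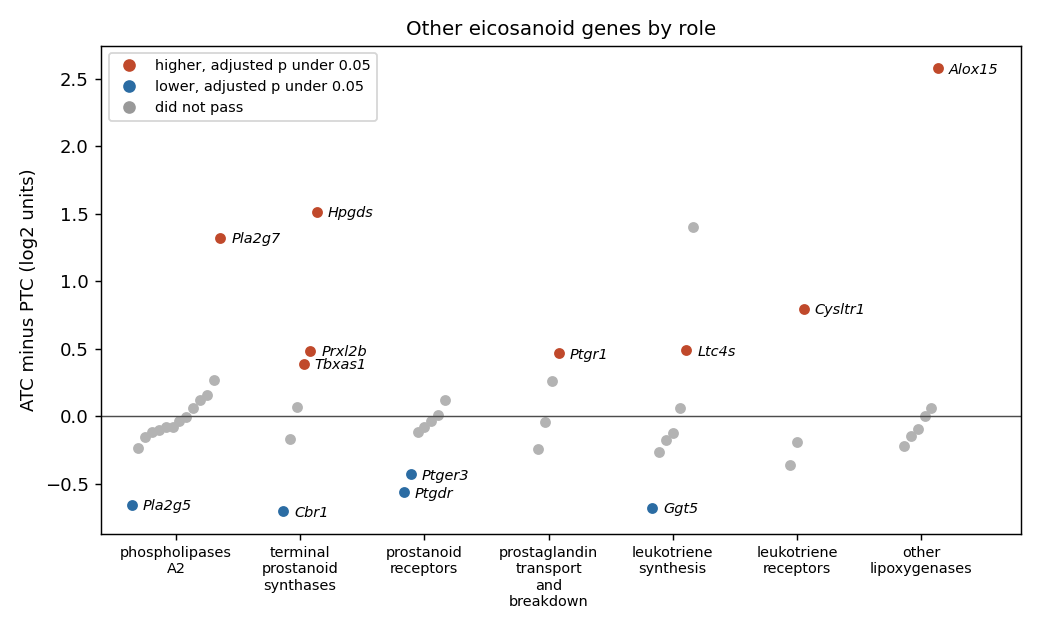
Difference ATC minus PTC in log2 units (vertical axis) for the 47 other eicosanoid genes, 1 point per gene, in 7 roles; red and blue points passed at an adjusted p under 0.05 and are named, grey points did not. The rises of Alox15, Hpgds and Pla2g7 stand above all other called genes.

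Cytokines and regulators known around Ptgs2 induction moved both ways. Of 14 such genes 12 were measured, of which 3 fell, 1 rose and 8 did not pass, with a median difference of −0.14; 33.3% were called, against 21.2% of all genes. Il1rn, the antagonist of the interleukin 1 receptor, fell by 1.06 (SE 0.26, adjusted p = 0.0138). Cxcl1, which draws neutrophils, fell by 0.69 log2 units (adjusted p = 0.013, SE 0.17). Anxa1, a glucocorticoid-induced protein that restrains phospholipase A2, fell by 0.34 (SE 0.07, adjusted p = 0.00711). Nfkbia, the inhibitor of NF-kB that NF-kB itself induces, rose by 0.58 (SE 0.15, adjusted p = 0.0197). The Nfkbia call ended without PTC replicate 3 (0.54, adjusted p = 0.0524).

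Il1b, a strong inducer of Ptgs2 in many cells, read 11.02, 11.53, 10.93, 11.15 and 9.32 in PTC and 8.84, 10.10, 9.98, 7.46 and 10.28 in ATC. PTC replicate 5 lay far below the other papillary tumours, but its Ptgs2 of 10.32 was the papillary median. ATC replicate 4, which had the lowest Ptgs2, had the lowest Il1b as well. ATC replicate 2 went the other way, with an Il1b above all ATC tumours but replicate 5 and a Ptgs2 (9.10) below all but replicate 4. A relation between Il1b and Ptgs2 was not tested. The Il1b difference of −1.46 did not pass (SE 0.55, adjusted p = 0.0866), but did without PTC replicate 5 (−1.83, adjusted p = 0.0329). Il6 differed by 0.75 (adjusted p = 0.169) and passed without ATC replicate 1 (1.03, adjusted p = 0.0321); with array weights it was 0.45. Without both PTC replicate 5 and ATC replicate 2, 7 of the 12 genes passed, 5 lower and 2 higher. That pair was chosen after seeing the data, and 3566 of all 19938 genes passed in the same fit.

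The genes most like the 2 most variable members were sought by Pearson's r over the 10 arrays, which fall into 2 groups, so the values are a description. For Hpgd these were Slc9a7 (r = 0.966), Gpr141b (r = 0.947) and Trip11 (r = 0.947), and r of the deviations from the group means was 0.946, 0.921 and 0.918. For Ptges they were Adnp2 (0.956), Cavin1 (0.956) and Padi4 (0.953), with 0.961, 0.941 and 0.926 for the deviations. None of these 6 genes passed between the groups (adjusted p from 0.0601 to 0.351).

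As a check of the labelled tissue, 3 of 11 measured thyrocyte markers fell and 0 rose (27.3% called, against 21.2% of all genes). Their list means were 7.74 to 8.71 in PTC and 6.63 to 7.94 in ATC. Among neighbouring tissues, 2 of 3 measured C cell markers fell and 0 rose (66.7% called, against 21.2% of all genes). The C cell list means were 7.53 to 8.47 in PTC and 7.01 to 7.42 in ATC. Parathyroid and skeletal muscle markers varied widely within both groups, with 0 called in either list. Parathyroid list means were 6.17 to 10.48 in PTC and 5.98 to 9.44 in ATC. Skeletal muscle list means were 6.85 to 8.95 and 7.12 to 8.44. The part of such tissue in the values of the 9 genes was not tested. Array values ran from 2.79 to 14.15 with array medians of 7.25 to 7.34, and array weights were lowest in ATC replicate 5 (0.375), ATC replicate 3 (0.556) and PTC replicate 5 (0.608). No detection call was used, and precision is limited by having 5 arrays a group.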

How the data were processed

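The authors deposited processed values of 35556 probe sets for 10 arrays, 5 per group. That these deposited values are log2 intensities, already normalized between arrays, was read from their range (2.79 to 14.15) and similar medians. Affymetrix Power Tools and limma are named without a version or role, per the submitters' processing notes. How background was corrected and how arrays were normalized is not stated there, nor is a build. The platform table gave 1 symbol to 21789 probe sets, several to 1621 and none to 12146. Only those with 1 symbol were used, and each of 19938 genes kept its probe set with the highest mean.

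Groups came from the sample titles. ATC minus PTC was fitted over all genes with lmFit and eBayes (limma 3.58.1, R 4.3.3), without covariates or filter, with Benjamini-Hochberg adjustment at 0.05. The procedure was tested on simulated data that gave each gene the same SD in both groups, so unequal spread was not covered. Pairs of genes were compared by exact two-sided permutation tests over tumours (scipy 1.17.1, Python 3.11.15). A planned pair of Ptgs2 with Ptgs1 could not be formed. Alternatives were a replicate block, other uses of probe sets, 2 filters on dim genes, 2 scalings, a variance trend, array weights and each array left out. The rule named all 9 genes, called genes of the other eicosanoid list (at most 12; Tbxas1, Pla2g4a and the other genes named without a call were added after their values were seen), called inflammation genes, and the 3 largest changes of 2 marker lists. Members and lists were chosen with earlier results of these data known. Promoter windows come from RefSeq, GRCm38.p6.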

Additional observations from a re-analysis of the deposited data

Results flagged for a closer look

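In 7 of 60 groups of 5 tumours (30 genes of the report, each in both groups), 1 tumour lay apart from the others by more than Dixon's 95% limit, which chance passes in about 1 group in 20. PTC replicate 5 accounted for 4 of them, all on the low side: Alox5ap at 10.60 against 10.99 to 11.12 in the other papillary tumours, Tbxas1 at 8.18 against 8.56 to 8.71, Il1rn at 10.0004 against 10.85 to 11.13 and Il1b at 9.32 against 10.93 to 11.53. The same array had the lowest macrophage list mean of the papillary tumours (9.33). Alox15 in PTC replicate 4 was high, at 8.63 against 7.07 to 7.47. Pla2g7 in ATC replicate 2 was low, at 11.15 against 12.11 to 12.22, and Ggt5 in PTC replicate 2 was low, at 7.86 against 8.04 to 8.10.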

How the results depend on the processing

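Alox5 and Alox5ap kept their direction and their call in all 20 alternatives run (differences 0.63 to 0.87 and 0.53 to 0.74), and Ptgs2 in 19 (−1.04 to −0.71 over all 20). Over the fits that leave out 1 array, 3 to 6 of the 9 genes passed, 11 to 14 of the other eicosanoid genes, 3 to 6 of the inflammation genes and 3253 to 4128 of all genes. The fit without PTC replicate 5 and ATC replicate 2, chosen after seeing the data, called 7 inflammation genes and 3566 of all genes. The sign of Ptges2 turned with quantile normalization once more (0.044) and with arrays centred on their median (0.0125), and ran from −0.048 to 0.0005 with 1 array left out. That of Ptger4 turned with centring (0.031) and array weights (0.0735), and ran from −0.12 to 0.0945 with 1 array left out. The cause was not tested. With the replicate number as a block, 3 of the 9 genes, 11 other eicosanoid genes, 3 inflammation genes and 3762 of all genes passed. Same-numbered tumours did not deviate together (r from −0.0858 to 0.120 across genes, own number best in 1 of 5). The labels do not say whether such tumours share anything beyond a number, and these correlations cannot settle it. The calls of Prxl2b, Tbxas1 and Nfkbia ended under the block, and that of Tbxas1 also with quantile normalization once more. The 3 paired comparisons did not pass in any of 11 alternatives. The filter at the median of gene means left Ptges2, Ptgis and Ptger2 untested.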
